A study of Mus musculus with 7 samples.

Results

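The long noncoding RNAs described here are 10 transcripts chosen by gene name for being known in brain RNA: Malat1 and Neat1 of the nuclear bodies, Meg3, Rian and Mirg of the Dlk1-Dio3 imprinted locus, Snhg14, Peg13 and Kcnq1ot1 of other imprinted loci, and Miat and Snhg11. They were read from a table of 54532 genes, and all 10 were among the 16308 genes with enough reads to be tested. RNA had been sequenced from motor cortex in 4 libraries of conditional knockout mice (cKO) and 3 libraries of wild-type mice (WT). Every animal in both groups had been given the GA100 virus in the left and right lateral ventricles at postnatal day 0, and tissue was taken 3 months after injection, once behaviour had been tested. The title of the series places the work in a poly-GA model of C9orf72 disease and names TIA1, an RNA-binding protein of stress granules.

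The comparison is therefore of cKO with WT among virus-injected mice, and uninjected mice were not analysed here. The labels give neither the gene and exons deleted, nor the Cre driver, nor whether a library is 1 animal or a pool. Tia1, read from the title as the likely target, had 81.4, 80.3, 72.7 and 81.9 CPM (read counts scaled to library size) in cKO 1 to 4, against 60.6, 95.8 and 68.9 CPM in WT 1 to 3. The cKO values lay inside the range of the WT values, and the log2 fold change was 0.07 ± 0.13 (SE; edgeR quasi-likelihood, adjusted p = 0.914). A gene-level count does not show whether a few exons are missing.

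The 7 libraries held 15181390 to 16403202 counts in cKO and 15213977 to 16463721 in WT. None of 76 marker genes of 9 cell types was at 0 in all libraries. This shows only that each was detected in at least 1 library. The lists include striatal, choroid plexus and meningeal markers, so it does not show the identity of the tissue. Xist was counted 19151 times in cKO 1 and 15217 times in WT 1, and at most 8 times in the other 5 libraries, so each group held 1 library that stands apart by sex. The library cKO 3 had the fewest genes with a count, 23168, and the largest share of mitochondrial counts, 7.54%, against 5.50% to 6.40% in WT. Markers are summed here for each group as CPM. Excitatory neuron markers, led by Camk2a and Slc17a7, summed to 4665 to 5932 in cKO and 5892 to 6509 in WT. Inhibitory neuron markers, led by Gad1 and Gad2, summed to 949.7 to 1316 in cKO and 854 to 957 in WT. Astrocyte markers, led by Slc1a2 and Slc1a3, summed to 5586 to 6392 in cKO and 5573 to 6236 in WT. Microglial markers (Csf1r, Cx3cr1 and others) summed to 242 to 273 in cKO and 257 to 323 in WT, and endothelial markers (Flt1, Slco1c1 and others) to 304 to 337 in cKO and 273 to 325 in WT. Meningeal markers (Col1a2, Col1a1 and others) summed to 34.4 to 76.2 in cKO and 32.4 to 78.4 in WT, and striatal markers (Pde10a, Adcy5 and others) to 1314 to 2321 in cKO and 1312 to 1631 in WT. Choroid plexus markers, led by Ttr and Kl, summed to 18.7 to 174 in cKO, where the high value was cKO 4, and 14.9 to 22.8 in WT. By log2 fold change, 1 tested excitatory marker was positive and 9 negative (median -0.21). For oligodendrocyte and myelin markers these counts were 9 and 0 (median 0.35), and for striatal markers 10 and 0 (median 0.29). They were 5 and 3 for inhibitory neurons and for astrocytes, 1 and 6 for microglia and 3 and 5 for endothelium. Meningeal markers gave 4 and 4, and choroid plexus markers 4 and 0. No marker was called, and genes of a list share their libraries.

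Long noncoding RNAs are transcribed and spliced much like messenger RNA but are not known to be translated, and many stay in the nucleus. Malat1 is kept in nuclear speckles beside splicing factors, and Neat1 is the scaffold on which paraspeckles form. Imprinted noncoding RNAs are made from 1 parental copy only: Meg3, Rian and Mirg come from the maternal chromosome and carry small RNAs, while Kcnq1ot1 and Snhg14 come from the paternal chromosome and silence neighbouring genes or act against an antisense partner. Neurons are a main source of Meg3, Miat and Snhg11 in the adult cortex.

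RefSeq (GRCm38.p6) gave a promoter window of 250 bases before to 50 bases after the start site for 8 of the 10, all but Neat1 and Peg13. The windows of 5 of the members that varied between libraries are shown 5′ to 3′ on the strand of the gene, because the results turn on such members. Capitals mark letters of the motifs searched on both strands. The windows are, in this order, at chr19:5802623-5802922, minus strand; chr12:109540746-109541045, plus strand; chr5:112228899-112229198, minus strand; chr2:158375463-158375762, plus strand; and chr7:143296498-143296797, minus strand.
Malat1: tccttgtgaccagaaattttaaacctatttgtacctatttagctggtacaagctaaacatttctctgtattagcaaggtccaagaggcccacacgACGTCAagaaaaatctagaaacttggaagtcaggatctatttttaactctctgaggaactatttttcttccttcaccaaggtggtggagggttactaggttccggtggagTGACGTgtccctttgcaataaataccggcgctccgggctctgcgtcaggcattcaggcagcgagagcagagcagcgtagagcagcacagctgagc
Meg3: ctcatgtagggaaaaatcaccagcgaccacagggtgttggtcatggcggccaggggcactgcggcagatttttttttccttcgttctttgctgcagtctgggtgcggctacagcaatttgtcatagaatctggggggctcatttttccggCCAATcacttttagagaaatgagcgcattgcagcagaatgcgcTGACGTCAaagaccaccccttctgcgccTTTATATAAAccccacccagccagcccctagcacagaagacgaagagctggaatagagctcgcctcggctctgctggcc
Miat: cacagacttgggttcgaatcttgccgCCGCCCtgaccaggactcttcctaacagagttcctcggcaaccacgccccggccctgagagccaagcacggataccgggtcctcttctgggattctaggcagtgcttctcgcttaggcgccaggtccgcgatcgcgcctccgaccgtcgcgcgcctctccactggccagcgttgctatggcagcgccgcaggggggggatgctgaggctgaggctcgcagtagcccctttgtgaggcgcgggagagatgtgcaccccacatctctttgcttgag
Snhg11: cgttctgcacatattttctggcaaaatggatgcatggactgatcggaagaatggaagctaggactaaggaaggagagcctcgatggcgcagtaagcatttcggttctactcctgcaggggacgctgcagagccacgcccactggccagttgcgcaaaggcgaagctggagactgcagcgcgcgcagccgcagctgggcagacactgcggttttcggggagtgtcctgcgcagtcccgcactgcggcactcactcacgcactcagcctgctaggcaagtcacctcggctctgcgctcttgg
Kcnq1ot1: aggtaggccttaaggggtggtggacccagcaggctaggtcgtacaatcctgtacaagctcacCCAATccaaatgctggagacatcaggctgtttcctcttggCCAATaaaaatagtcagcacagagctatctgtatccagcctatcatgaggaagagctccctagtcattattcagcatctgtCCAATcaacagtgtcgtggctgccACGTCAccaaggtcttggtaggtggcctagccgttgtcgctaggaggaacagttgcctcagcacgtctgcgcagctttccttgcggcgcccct

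The motifs searched were the TATA box TATAAA, the box written CCAAT, the GC box written GGGCGG, the cyclic AMP response element TGACGTCA, its core sequence TGACGT, the E box CACGTG and a heat shock element of 3 units. TGACGT lies inside every TGACGTCA, and in Meg3 the TATAAA copies of the 2 strands overlap. The window of Meg3 shown held TGACGTCA at -57, TATAAA at -29 and -25 and CCAAT at -100, counted from the start site. RefSeq gave Meg3 another window, at chr12:109545148-109545447, which held none of the motifs searched. TGACGTCA occurred in 1.79% of 32851 promoter windows of the same length, TATAAA in 13.6% and CCAAT in 37.4%. Malat1 held TGACGT at -155 and -45, and Kcnq1ot1 held it at -43 beside 3 copies of CCAAT; 7.51% of all windows hold TGACGT. The window of Miat held GGGCGG at -224, a motif of 35.7% of windows, and that of Snhg11 held none of those searched. Among the other windows, those of Mirg and Snhg14 held CCAAT, and that of Rian held none. The Snhg14 window (chr7:60450128-60450427) lies upstream of the counted model, which ends at 59975759. The Mirg window (chr12:109734731-109735030) lies inside the counted gene, which starts at 109729764. Neither window is at the start of the model that was counted. CACGTG (7.15% of windows) and the heat shock element (0.603%) were in no member's window. A match is a description of these letters and shows no binding.

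Levels of different genes are compared here as FPKM, fragments scaled to gene model length and library size. Snhg11 was highest, with a mean of 88.3 FPKM over the 7 libraries (lowest 37.8, highest 121), followed by Peg13 at 84.0 (79.9 to 90.5), Malat1 at 67.5 (30.0 to 93.5) and Meg3 at 67.0 (23.8 to 95.4). The ranges of these 4 overlapped, but Snhg11 lay above both Malat1 and Meg3 in every library. The place of Peg13 among them, and the order of Malat1 and Meg3, changed between libraries. Rian averaged 25.3 FPKM (22.2 to 28.1) and Miat 12.4 FPKM (4.20 to 16.1), and the range of Rian met only the lowest value of Meg3. Snhg14 averaged 4.25 FPKM (3.60 to 4.93), Neat1 1.97 FPKM (0.944 to 2.79), Mirg 1.27 FPKM (0.735 to 1.91) and Kcnq1ot1 0.295 FPKM (0.165 to 0.407). The ranges of Miat and Snhg14 overlapped, as did those of Neat1 and Mirg, although Neat1 lay above Mirg in every library. Kcnq1ot1 lay below all others in every library. Of all tested genes, only 1.93% had a higher mean FPKM than Snhg11 and 3.00% than Meg3. The figures were 66.8% for Neat1, 75.1% for Mirg and 94.3% for Kcnq1ot1, so these 3 were not abundant per length in this tissue. Kcnq1ot1 is a single unspliced model of 93092 bases, and its 0.295 FPKM is an average over that length. Together the 10 took 0.440%, 0.405%, 0.191% and 0.451% of the counts in cKO 1 to 4, against 0.276%, 0.476% and 0.296% in WT 1 to 3.

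**Figure D1:**
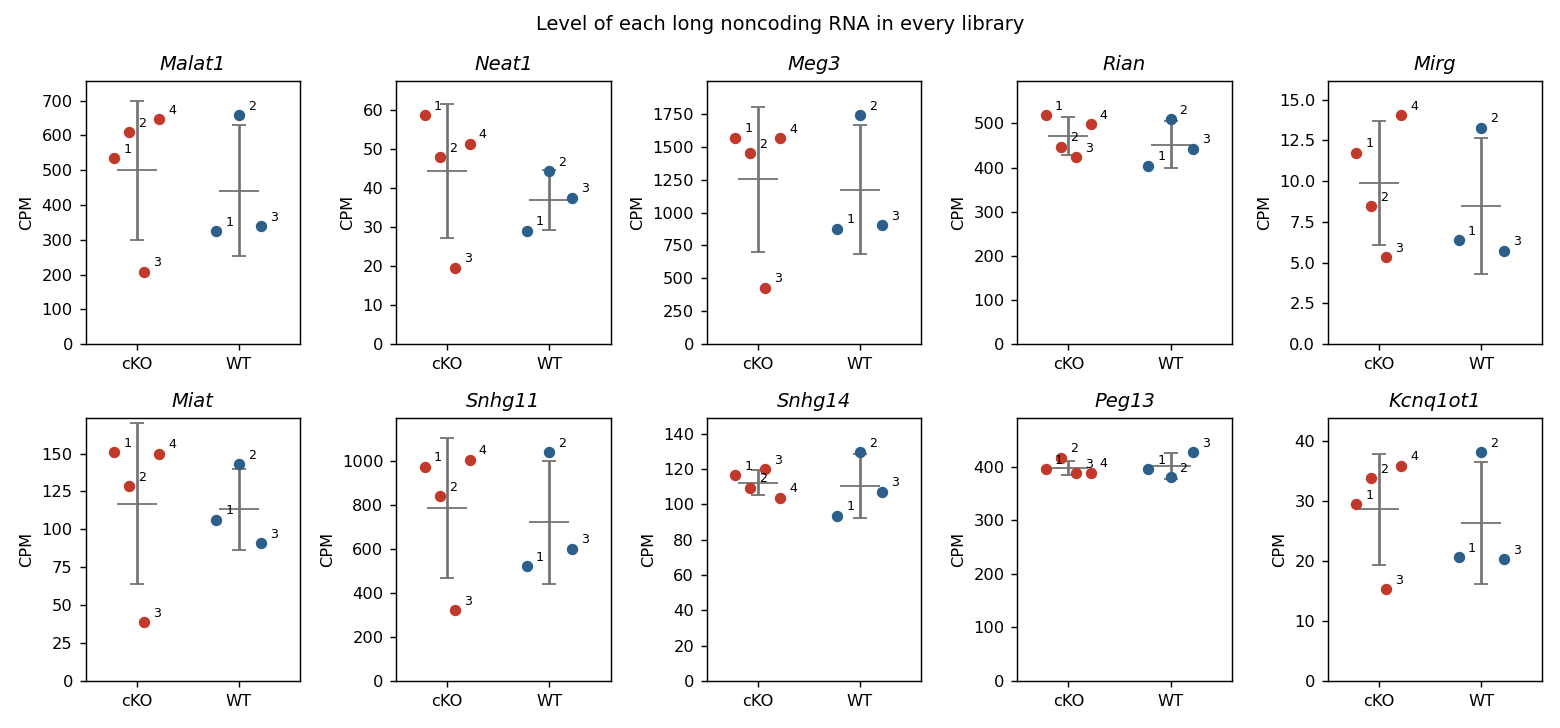
Level of each of the 10 long noncoding RNAs in every library, as CPM on axes that start at 0; numbers beside the points are library numbers, and bars are the mean and SD of 4 cKO and 3 WT libraries. cKO 3 is the lowest point for 7 of the 10, while Rian, Snhg14 and Peg13 lie close together in both groups.

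The question put to the members is whether their levels differed between cKO and WT. None of the 10 passed the test (edgeR quasi-likelihood, Benjamini-Hochberg over 16308 genes, adjusted p under 0.05), and the background was 0% of genes called. At an unadjusted p under 0.05 there were 0 of 10 members, where 7.14% of all genes (1164) passed. DESeq2 called 6 genes (0.0368%) and limma-voom 0, with no member among them. With the replicate number as a block, which leaves cKO 4 without a partner and so without weight, 2 genes were called, Cadm2 and Rpl30, and again no member. The groups overlapped in CPM for every member, where 7.38% of genes had groups that did not overlap (3.97% with cKO higher). Since nothing says that libraries are separate animals, p-values measure the spread between libraries. In bulk tissue, fewer cells of a type and less RNA per cell cannot be told apart.

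Among the nuclear RNAs, Malat1 (chromosome 19, 5795690 to 5802672, minus strand, mm10; annotated lincRNA, 1 exonic block of 6983 bases) had 534, 609, 209 and 647 CPM in cKO 1 to 4, against 325, 658 and 338 CPM in WT 1 to 3. The highest cKO value and the highest WT value were nearly level, and the lowest library of all was cKO 3. Its mean was 499.7 ± 199.5 CPM in cKO and 440.4 ± 188.2 CPM in WT (SD, n = 4 and 3). The log2 fold change was 0.18 ± 0.33 (SE; 95% interval -0.54 to 0.90; edgeR quasi-likelihood, adjusted p = 0.918). Neat1, the neighbouring gene at 5824708 to 5845478 on the same strand and also a lincRNA, had 58.6, 47.9, 19.5 and 51.3 CPM in cKO, against 29.1, 44.3 and 37.5 CPM in WT. Here 3 cKO libraries lay above all WT libraries and cKO 3 lay below them. The log2 fold change was 0.26 ± 0.28 (SE; 95% interval -0.34 to 0.87; edgeR quasi-likelihood, adjusted p = 0.854). Gene-level counts do not separate the short and long forms of Neat1.

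The log2 ratio of Neat1 to Malat1 counts within a library, which does not depend on scaling, averaged -3.48 ± 0.23 in cKO and -3.52 ± 0.36 in WT (SD). The difference of 0.03 gave p = 0.914 in an exact two-sided permutation test over 35 splits, where the smallest p possible is 0.0571. Genes for the proteins of the same bodies were tested in the same fit. Of 17 paraspeckle protein genes none passed; 6 had positive and 11 negative log2 fold changes, with a median of -0.02. Matr3 and Hnrnpk, RNA-binding proteins and the most abundant of them, had log2 fold changes of 0.05 ± 0.11 and -0.01 ± 0.07 (SE). Of 18 nuclear speckle and SR protein genes none passed; 14 were positive and 4 negative, with a median of 0.08 against 0.01 over all genes. Srrm2 and Son, the scaffold proteins of speckles, had 0.20 ± 0.10 and 0.12 ± 0.08 (SE).

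At the Dlk1-Dio3 locus on chromosome 12, Meg3 (lincRNA, 109541001 to 109571726, plus strand), a transcript known as a growth suppressor in human cells, had 1567, 1451, 429.7 and 1564 CPM in cKO 1 to 4, against 877, 1738 and 904 CPM in WT 1 to 3. That places cKO 3 at less than every other library, and WT 1 and WT 3 between it and the remaining 4. Its log2 fold change was 0.09 ± 0.37 (SE; 95% interval -0.70 to 0.89; edgeR quasi-likelihood, adjusted p = 0.967). Rian (109603940 to 109661716, plus strand, annotated processed transcript), the host of box C/D snoRNAs that follows Meg3 on the same strand, had 518, 447, 424 and 498 CPM in cKO, against 404, 509 and 443 CPM in WT. All 7 values lay within 1.28-fold of each other. Mirg (lincRNA, 109729764 to 109749460, plus strand), the host of a large microRNA cluster, had 11.8, 8.45, 5.34 and 14.03 CPM in cKO, against 6.36, 13.3 and 5.75 CPM in WT. This rests on 79 to 224 counts a library, and again cKO 3, WT 1 and WT 3 were the 3 lowest. Rian gave a log2 fold change of 0.06 ± 0.10 and Mirg of 0.23 ± 0.33 (SE; edgeR quasi-likelihood, adjusted p = 0.907 and 0.902).

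The 3 are thought to belong to 1 long maternal transcription unit, so their ratios were set side by side. Rian counts divided by Meg3 counts were 0.331, 0.308, 0.986 and 0.318 in cKO 1 to 4, against 0.461, 0.293 and 0.490 in WT 1 to 3. In cKO 3 the transcripts were counted almost equally often, and in every other library Meg3 was counted more than Rian. The mean log2 ratio was -1.24 ± 0.82 in cKO and -1.31 ± 0.40 in WT (SD), a difference of 0.07 (exact permutation p = 0.971, smallest possible 0.0571). Mirg to Meg3 averaged -6.90 ± 0.46 in cKO and -7.15 ± 0.14 in WT, a difference of 0.24 (exact permutation p = 0.514). Adjusted over the 4 ratios tested, every p was 0.971. The Rian to Meg3 difference was -0.34 without cKO 3 and -0.17 without WT 2, so its direction rests on these libraries.

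**Figure D2:**
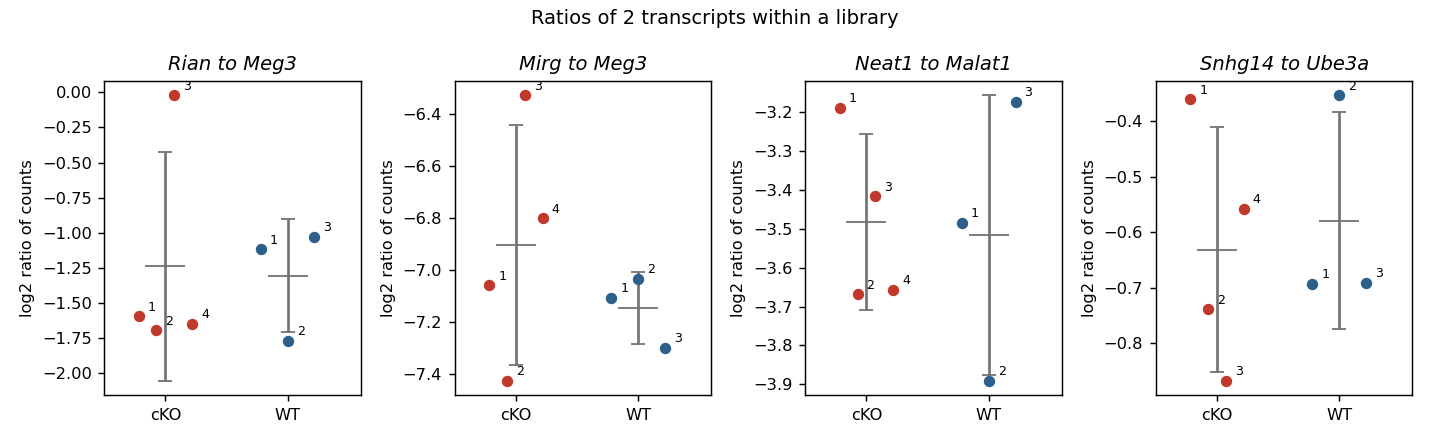
Log2 ratio of counts of 2 transcripts within each library for 4 pairs, with the mean and SD of 4 cKO and 3 WT libraries; the axes differ between panels and do not start at 0. For Rian to Meg3, cKO 3 lies near 0 while the other 6 libraries lie between -1.77 and -1.03.

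Protein-coding and other genes of the locus gave 4 tested of 6 listed, and none passed; 1 was positive and 3 negative. Begain, a synaptic protein gene, had a log2 fold change of -0.21 ± 0.12, and Rtl1, a paternally expressed retrotransposon-derived gene, of -0.10 ± 0.33 (SE). RefSeq places 3 mature microRNAs inside the Meg3 gene, 6 inside Rian and 26 inside Mirg. Mature microRNAs are too short for these libraries and were not measured. The sequences below show what these hosts carry, with the seed (bases 2 to 8) in capitals: 1 each of Meg3 and Rian, then 3 of Mirg, of which miR-453 and miR-496a-5p share the seed GGUUGCC. No other seed was shared among the 35. In rodent neurons miR-134 is known to limit dendritic spine size.
mmu-miR-770-5p: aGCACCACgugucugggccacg
mmu-miR-370-3p: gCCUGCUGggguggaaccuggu
mmu-miR-134-5p: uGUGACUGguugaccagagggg
mmu-miR-453: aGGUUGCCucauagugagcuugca
mmu-miR-496a-5p: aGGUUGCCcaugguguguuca

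Snhg14 (chromosome 7, 59307924 to 59975759, minus strand), the long paternal transcript that hosts snoRNAs and runs antisense into Ube3a, had 116, 109, 120 and 104 CPM in cKO 1 to 4, against 93.6, 130 and 107 CPM in WT 1 to 3. The cKO values lay inside the WT range. Its log2 fold change was 0.03 ± 0.10 (SE; 95% interval -0.20 to 0.26; edgeR quasi-likelihood, adjusted p = 0.967). The counted model covers 26093 bases, 3.91% of the span, and the span holds 208 annotated snoRNA genes. Ube3a, the ubiquitin ligase gene whose paternal copy is silenced by this transcript in neurons, had 150, 183, 219 and 153 CPM in cKO, against 151, 166 and 173 CPM in WT. The log2 ratio of Snhg14 to Ube3a averaged -0.63 ± 0.22 in cKO and -0.58 ± 0.20 in WT (SD), a difference of -0.05 (exact permutation p = 0.686). Because the strand setting of the counting is not given, reads of Snhg14 and Ube3a cannot be told apart where they overlap. Of 6 tested genes of this locus none passed; 2 were positive and 4 negative, with a median of -0.08, and Snrpn, a spliceosome protein gene, had -0.05 ± 0.08 (SE). Snurf, listed for the same locus, was at 0 in all libraries.

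Peg13 (chromosome 15, 72805600 to 72810324, minus strand, annotated sense intronic), a paternally expressed RNA inside an intron of Trappc9, had 395, 416, 387 and 389 CPM in cKO 1 to 4, against 395, 380.0 and 427 CPM in WT 1 to 3. It was the steadiest member, with 1.12-fold between its highest and lowest library. The log2 fold change was -0.01 ± 0.07 (SE; 95% interval -0.18 to 0.15; edgeR quasi-likelihood, adjusted p = 0.978). Trappc9, a trafficking gene on the same strand whose intronic reads may overlap Peg13, had 66.6, 73.0, 70.7 and 70.2 CPM in cKO, against 83.0, 69.2 and 72.1 CPM in WT. Of 4 genes of the Peg13-Kcnk9 locus none passed, with 1 positive and 3 negative; Ago2 had 0.05 ± 0.09 and Kcnk9, a potassium channel gene, had -0.0030 ± 0.11 (SE).

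Kcnq1ot1 (chromosome 7, 143203458 to 143296549, minus strand, annotated antisense), which silences neighbouring genes on the paternal chromosome, had 29.5, 33.8, 15.3 and 35.9 CPM in cKO 1 to 4, against 20.6, 38.2 and 20.3 CPM in WT 1 to 3. Again cKO 3 was lowest and WT 2 highest. Its log2 fold change was 0.12 ± 0.27 (SE; 95% interval -0.48 to 0.71; edgeR quasi-likelihood, adjusted p = 0.937). Kcnq1, the potassium channel gene it runs through on the opposite strand, had only 2 to 16 counts a library. Of 7 tested genes of the locus (11 listed) none passed; 2 were positive and 5 negative, with a median of -0.10. Cd81, a tetraspanin gene, had -0.02 ± 0.07 and Nap1l4, a histone chaperone gene, 0.02 ± 0.07 (SE).

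Miat (chromosome 5, 112213228 to 112229395, minus strand), a nuclear RNA of neurons, had 151, 128, 38.9 and 149.8 CPM in cKO 1 to 4, against 106, 143 and 91.0 CPM in WT 1 to 3. The cKO 3 value lay 3.30-fold under the lowest of the other cKO libraries, and 3 of the 4 cKO values lay above 2 of the 3 WT values. Its log2 fold change was 0.05 ± 0.34 (SE; 95% interval -0.69 to 0.78; edgeR quasi-likelihood, adjusted p = 0.984). Snhg11 (chromosome 2, 158375638 to 158386145, plus strand), a snoRNA host gene that the files annotate as protein coding, had 973, 839, 321 and 1004 CPM in cKO, against 521, 1038 and 599 CPM in WT. It followed the same order of libraries as Meg3 at the low end, with cKO 3, WT 1 and WT 3 lowest. Its log2 fold change was 0.12 ± 0.33 (SE; 95% interval -0.59 to 0.83; edgeR quasi-likelihood, adjusted p = 0.944).

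**Figure D3:**
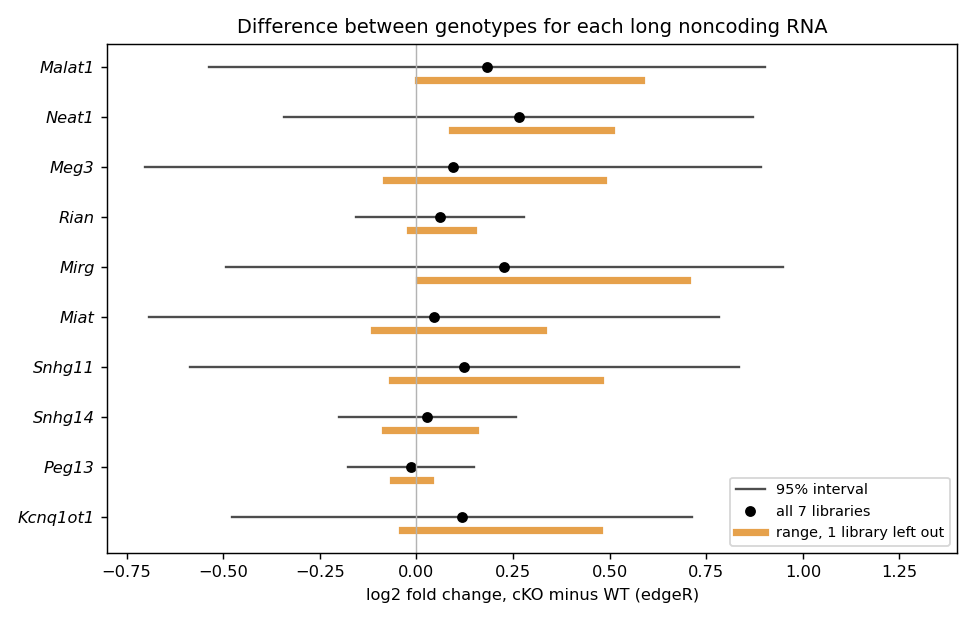
Log2 fold change of cKO minus WT for each member from edgeR (points) with its 95% interval (thin lines) and the range when 1 library at a time is left out (thick bars). Every interval crosses 0, and 7 of the 10 are wider than those of Rian, Snhg14 and Peg13.

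Over the 10, 9 log2 fold changes were positive and 1 negative, with a median of 0.11, beside 51.8% positive and a median of 0.01 over all genes tested. The members share their libraries, so these signs are not 10 separate observations. Of the 9 positive ones, those of Malat1, Neat1 and Mirg stayed above 0 whichever library was left out, and the other 6 turned negative without at least 1 library. Without cKO 3 the log2 fold changes of Malat1, Neat1 and Miat were 0.43, 0.50 and 0.33, with unadjusted p under 0.05 for these 3 (where 9.55% of all genes passed in that fit) and edgeR quasi-likelihood adjusted p of 0.515, 0.199 and 0.427. Without WT 2 those of Malat1, Meg3, Mirg, Snhg11 and Kcnq1ot1 were 0.58, 0.48, 0.70, 0.47 and 0.47. Without replicate 1 in both groups, which leaves the 5 libraries with little Xist, all 10 were negative, between -0.20 for Meg3 and -0.02 for Peg13. Between the 2 libraries with high Xist, cKO 1 was above WT 1 for 9 of the 10 members, where 50.7% of all tested genes were higher; with 1 library on each side this has no test.

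The members differed from each other in how far their libraries lay apart. The highest library over the lowest was 4.05-fold for Meg3, 3.88 for Miat, 3.23 for Snhg11, 3.15 for Malat1, 3.00 for Neat1, 2.63 for Mirg and 2.50 for Kcnq1ot1. It was 1.38 for Snhg14, 1.28 for Rian and 1.12 for Peg13. On the log2 scale the SD over the 7 libraries was 0.72 for Meg3, 0.70 for Miat, 0.64 for Malat1 and 0.63 for Snhg11. Among the 10108 genes with a mean of at least 9.28 CPM, the level of the lowest member, the median SD was 0.14, and 0.277% had a larger SD than Meg3 and 0.841% a larger SD than Kcnq1ot1. Of the steady members, 48.6% of those genes had a larger SD than Rian, 41.4% than Snhg14 and 96.1% than Peg13. The division into 7 and 3 was made after their values were seen and is a description.

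**Figure D4:**
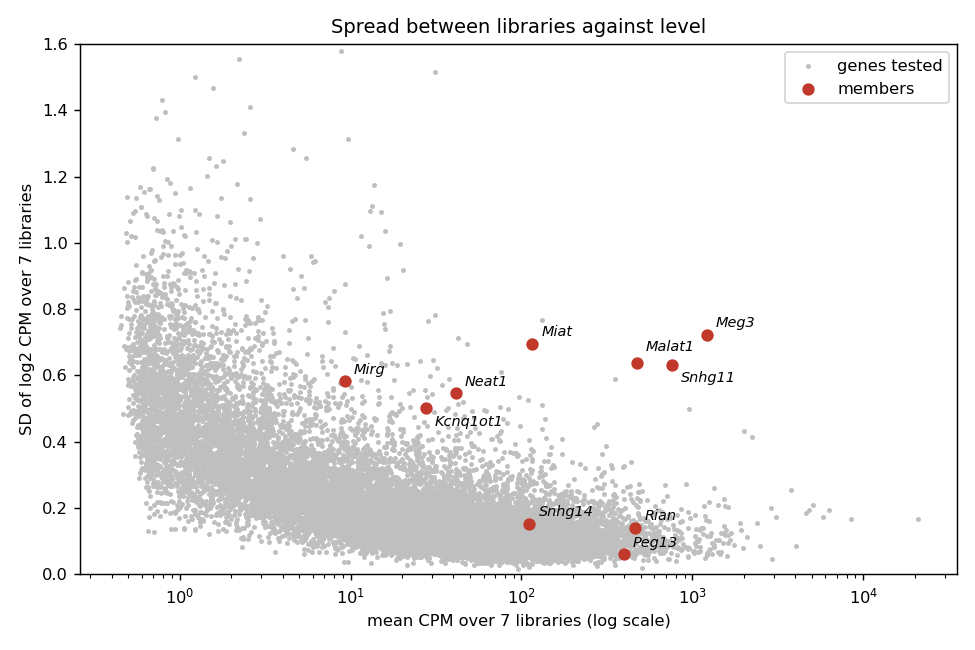
SD of log2 CPM over the 7 libraries against mean CPM (log axis) for all 16308 genes tested (grey) and the 10 members (red); 16 genes above the axis top of 1.6 are not drawn. Of the members, 7 lie between 0.50 and 0.72, above nearly all genes of like level, and Rian, Snhg14 and Peg13 lie at or below 0.15 among the bulk of genes.

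The variable members were low in the same libraries. The 3 lowest libraries were cKO 3, WT 1 and WT 3 in 8 of the 10 members, all but Snhg14 and Peg13, and in 8.54% of all genes tested. Those 3 libraries were singled out after the values were seen, they mix both genotypes, and no test was made of them. The same 3 were lowest in 296 of 1546 other long noncoding genes (19.1%) and in 1060 of 14067 protein-coding genes (7.54%). Relative to its mean over the 7 libraries, the median other long noncoding gene stood at -0.22 in cKO 3 on the log2 scale, while the median protein-coding gene stood at 0.01 there and the median mitochondrial gene at 0.37. The 9 summed oligodendrocyte and myelin markers, Mbp and Mobp among them, came to 4694 (cKO 1), 5479 (cKO 2), 2603 (cKO 3) and 4841 CPM (cKO 4), against 2681, 4122 and 3609 CPM in WT 1 to 3, and so were also lowest in these 3 libraries. All 9 of those marker genes were tested and none was at 0, and their part in the levels of the noncoding RNAs was not tested. The summed inhibitory neuron markers were highest in cKO 3, at 1316 CPM, of which Gad1 gave 591 and Gad2 415 CPM. Averaged over the genes of that list on the log2 scale, relative to the mean of the 7 libraries, cKO 3 stood at 0.06 and cKO 1 at 0.08, so the list as a whole was not highest in cKO 3. The part of these markers and of the mitochondrial share was not tested either.

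**Figure D5:**
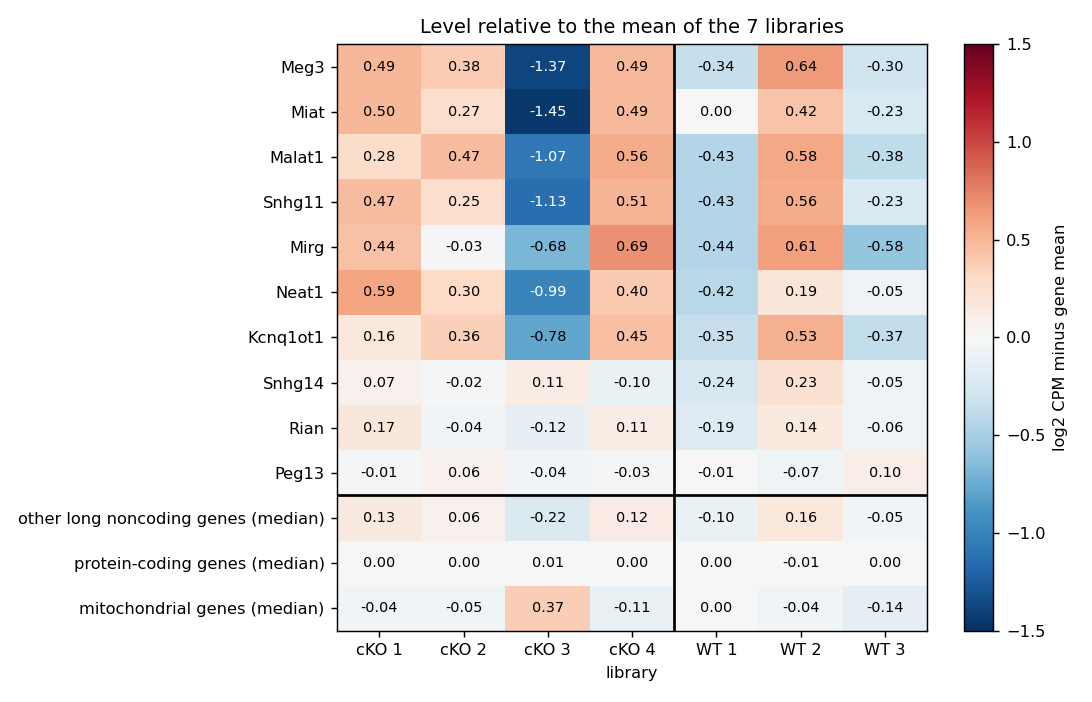
Log2 CPM of each member in each library minus its mean over the 7 libraries, with the medians of other long noncoding, protein-coding and mitochondrial genes below the line. The column of cKO 3 runs from -1.45 for Miat to 0.11 for Snhg14, and WT 1 and WT 3 are the next lowest columns for most of the upper rows.

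Likeness of profile was measured as the root mean square difference of these centred log2 values over the 7 libraries. Between members the closest pairs were Meg3 with Snhg11, at 0.12, and Malat1 with Snhg11, at 0.12, while the neighbours Meg3 and Rian stood 0.58 apart. The closest genes outside the set were, for Meg3, Srrm4os at 0.056 and 1700109H08Rik at 0.097, and for Snhg11, Mir124a-1hg at 0.060 and 8430422M14Rik at 0.095. Mir124a-1hg, the host gene of the neuronal microRNA miR-124, had 104, 78.2, 33.4 and 97.1 CPM in cKO 1 to 4, against 52.4, 104 and 60.6 CPM in WT 1 to 3. For Malat1 they were Gm17552 and Cfp, for Neat1 Grin1os and Gm13629, for Mirg Gm37960 and 9630013A20Rik, for Miat Gm26648 and Chn1os3, and for Kcnq1ot1 Gm49204 and Gm38372. Of the steady members, Rian was closest to Gk5 and Fnbp4, Snhg14 to Tm7sf3 and Tmem87b, and Peg13 to Herc1 and Dffa. All of these are annotated protein coding, as are Cfp and 1700109H08Rik, named for Malat1 and Meg3. Protein-coding genes made up 14067 of the 16308 genes tested, members left out of that count. Several of the genes named as closest had few counts, so their likeness rests on low values.

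Short annotated genes inside the steady transcripts varied more between libraries than their hosts did, on far fewer counts. Gm26945, a lincRNA model within Rian, had 4.28, 6.98, 2.50 and 6.58 CPM in cKO 1 to 4, against 2.75, 5.13 and 3.24 CPM in WT 1 to 3. A230103L15Rik, a model within the Snhg14 span, had 4.70, 3.92, 1.35 and 4.70 CPM in cKO, against 2.57, 5.62 and 2.25 CPM in WT. Both were lowest in cKO 3, WT 1 and WT 3, on 20 to 105 counts a library, and neither passed the test. Mir1188, Gm24564, Gm23600 and Mir341 within Rian and Gm44829, Gm24966 and Gm44831 within Snhg14 had 2 to 44 counts a library, with log2 fold changes from -0.20 to 0.71 and none called. All of these but Mir1188 were also lowest in cKO 3, WT 1 and WT 3, an order read after the values were seen. Gm25129, a snoRNA gene within Snhg11, had 52, 31, 8 and 33 counts in cKO, against 35, 47 and 30 in WT. Gm38393, which overlaps the start of Snhg14, was level at 29.7 to 36.1 CPM in cKO and 30.3 to 33.8 CPM in WT.

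Other long noncoding RNAs of the brain were listed for comparison, and 20 of 23 were tested. None was called, 12 were positive and 8 negative, and the median log2 fold change was 0.11. The most abundant, 2900097C17Rik, had 1298, 1368, 1504 and 1303 CPM in cKO 1 to 4, against 1520, 1277 and 1393 CPM in WT 1 to 3. Its log2 fold change was -0.03 ± 0.09 (SE). The SD of log2 CPM over the 7 libraries was 0.10 for this gene and 0.18 for 1700020I14Rik. The next, 1700020I14Rik, had 761, 885, 1020 and 835 CPM in cKO, against 729, 723 and 773 CPM in WT, with a log2 fold change of 0.24 ± 0.10 (SE; edgeR quasi-likelihood, adjusted p = 0.694). Its highest library was cKO 3, where the variable members were lowest. The libraries cKO 3, WT 1 and WT 3 were the 3 lowest in 5 of these 20 and not in the other 15; the 5 were Mir124a-1hg, Ftx, Firre, A330023F24Rik and Lncpint, named after their values were seen. Firre, an X-linked nuclear RNA, had 40.3, 37.4, 22.7 and 43.7 CPM in cKO, against 28.5, 39.5 and 28.5 CPM in WT.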

How the data were processed

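Motor cortex RNA of 4 cKO and 3 WT libraries was analysed, grouped by the genotype label. The authors deposited raw read counts per gene and FPKM values. featureCounts 1.5.0-p3, DESeq2 1.20.0 and the build mm10 are named, per the submitters' processing notes; aligner, annotation release, strand setting and the handling of multi-mapping reads were not given in the sources used here. Per the labels' protocols, fragmented mRNA was primed with random oligonucleotides, so capture of unpolyadenylated transcripts is unknown. Depth was 15181390 to 16463721 counts, and precision depended on the spread between libraries as well as on depth. The deposited FPKM used a library total 0.968 to 1.02 times the sum of counts, with the authors' gene model length in bases.

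Counts were tested in edgeR 4.0.16 (R 4.3.3): TMM factors, filterByExpr, quasi-likelihood F test, Benjamini-Hochberg over 16308 genes, called under 0.05. CPM are TMM-scaled. Alternatives were DESeq2 1.42.0, limma 3.58.1 on counts and on log2(FPKM + 1) or log2(FPKM + 0.1), other factors and filters, a replicate block, and each library left out. Ratios were tested by exact permutation (SciPy 1.17.1). The fit was also run on simulated counts in which every gene had the same spread setting. The members differed widely in spread, so that run does not show how the fit performs for them. Deviations of same-numbered libraries from their group means were weakly correlated (0.110, 0.128 and 0.122), and no label says that the numbers pair libraries. The main fit and the permutation tests therefore used no pairing. Pairing by number entered only as an alternative. The members and lists were chosen with earlier results of these data known. Named genes are the 10 members, Tia1, the 2 most abundant tested genes of each list, tested genes overlapping a member, and the 2 genes nearest each member in profile; listed genes at 0, genes behind a count of 5 or fewer, and Firre were named outside this rule, after their values were seen. Some genes of the marker lists are not reported here and were left out of the sums.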

Additional observations from a re-analysis of the deposited data

Results flagged for a closer look

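In 14 sets of 4 cKO values (the CPM of 10 members and 4 ratios), 2 had a sample far from the other 3, with a gap to its nearest neighbour above 0.829 of the whole range. Chance picks out about 1 in 20 such sets. The Meg3 level of cKO 3, 429.7 CPM, lay apart from the other cKO libraries, at 1451 to 1567 CPM. The log2 ratio of Rian to Meg3 in cKO 3 was -0.020, against -1.70 to -1.60 in the other cKO libraries. Both values come from the same library and share the Meg3 count, so they are not separate observations.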

How the results depend on the processing

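No member was called under any of 20 alternatives, and 157 of 198 member values kept their direction. With no filter on low counts, Neat1 had an unadjusted p of 0.019 and an adjusted p of 0.565 (edgeR quasi-likelihood). Its unadjusted p in the main fit was 0.362. Without the filter, 2088 of 31277 genes had an unadjusted p under 0.05. The count of genes called, 0, became 198 with no filter on low counts, 6 with DESeq2, 3 with limma on log2(FPKM + 1) and no filter, and 0 to 3 with 1 library left out; the cause was not tested. With the replicate block, which uses the pairing by number, it was 2, and the log2 fold changes of Malat1, Meg3, Miat, Snhg11 and Kcnq1ot1 were -0.030, -0.17, -0.26, -0.11 and -0.016; it changed no call of a member. Meg3 was -0.0011 and Miat -0.11 with limma-voom, -0.0060 and -0.091 with log2(FPKM + 1), filtered or not, and -0.0091 and -0.12 with log2(FPKM + 0.1). Without replicate 1 in both groups, Malat1, Neat1, Meg3, Rian, Mirg, Miat, Snhg11, Snhg14 and Kcnq1ot1 were -0.029, -0.048, -0.20, -0.062, -0.037, -0.15, -0.18, -0.096 and -0.047. With 1 library left out, the log2 fold change ran from 0.0031 to 0.58 for Malat1, 0.09 to 0.50 for Neat1, -0.078 to 0.48 for Meg3, -0.017 to 0.15 for Rian, 0.0075 to 0.70 for Mirg, -0.11 to 0.33 for Miat, -0.065 to 0.47 for Snhg11, -0.080 to 0.15 for Snhg14, -0.062 to 0.034 for Peg13 and -0.038 to 0.47 for Kcnq1ot1. The ratio differences ran from -0.34 to 0.22 for Rian to Meg3, 0.051 to 0.42 for Mirg to Meg3, -0.15 to 0.20 for Neat1 to Malat1 and -0.14 to 0.061 for Snhg14 to Ube3a. Kcnq1ot1 gave no value where a mean of 0.5 FPKM was asked for. Depth limits Mirg most, at 79 to 224 counts a library. With 3 WT and 4 cKO libraries and this spread, the interval of Meg3 still allows log2 differences from -0.70 to 0.89.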

Other observations

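Noncoding genes that host snoRNAs were mostly low in counts: 14 of 18 were tested, none was called, and 10 had positive and 4 negative log2 fold changes, with a median of 0.06. Gas5, a host gene tied to growth arrest, had 28.1, 26.9, 20.6 and 26.3 CPM in cKO 1 to 4, against 21.97, 26.6 and 23.4 CPM in WT 1 to 3, and was lowest in cKO 3, WT 1 and WT 3, which held for 1 of these 14 genes and not for the other 13. Zfas1 had 9.59, 7.38, 6.02 and 9.09 CPM in cKO, against 8.93, 9.20 and 7.59 CPM in WT, with a log2 fold change of -0.10 ± 0.17 (SE). Snhg9 was at 0 in all libraries.

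TIA1 is known to bind runs of U, so the base content of the members was read from the longest annotated transcript of each gene (GENCODE M21). For Snhg14 that transcript had 6861 bases, against 26093 in the counted model. For Rian it had 8089 against 18234, and for Mirg 3822 against 7292. Meg3, Snhg11 and Miat were also read from a transcript shorter than the counted model. The values below are of these transcripts. U made up 36.4% of Snhg14, 32.1% of Rian, 30.0% of Neat1, 29.3% of Snhg11 and 28.9% of Malat1, beside a median of 24.9% over 16293 genes. Runs of 5 U numbered 8.02 per kilobase in Snhg11, 7.17 in Rian, 6.74 in Neat1, 6.59 in Malat1 and 6.41 in Snhg14, beside a median of 2.14. Meg3, at 3.51 per kilobase, and Kcnq1ot1, at 2.93, were nearer to that median, and 3 members lay below it: Miat at 1.75, Peg13 at 1.69 and Mirg at 0.785. By percent U only Miat, at 23.2%, was below the median of genes, and Mirg was at 24.9%, Meg3 at 26.1%, Kcnq1ot1 at 26.4% and Peg13 at 27.2%. Binding of TIA1 was not measured. The part of such runs in the levels of the members, or in their spread between libraries, was not tested.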
